A study of Mus musculus with 7 samples.

Results

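The genes described here are 10 genes of the skeletal muscle sarcomere other than the myosins, chosen by their symbols: Acta1, Actc1, Ttn, Neb, Tnni2, Tnnt3, Tnnc2, Mylpf, Ckm and Des. They are 10 of the 23366 genes in the deposited count table, and all 10 were among the 15129 genes that passed a filter on low counts, which the counts of the parotid libraries were enough to meet for each member. The study compared mouse salivary glands by bulk RNA-seq of polyA RNA. Its groups here were submandibular glands at postnatal day 18 (P18, n = 2 libraries), adult parotid glands at 12 weeks (n = 3 libraries) and parotid glands at P18 (n = 2 libraries). Strain and sex are not in the labels, and neither is a genotype or treatment. One label calls the material whole tissue, while the extraction protocol speaks of epithelial cells isolated from the glands. Nothing in the labels says that replicates came from separate animals, so p-values measure only the spread between these libraries, which may be technical.

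The sarcomere is the contractile unit of striated muscle, in which thin filaments of actin slide along thick filaments of myosin. Troponin on the thin filament makes contraction depend on calcium, the giant proteins titin and nebulin set and stabilise the filament lattice, and desmin ties neighbouring myofibrils together. Salivary glands secrete through acinar cells and are squeezed by myoepithelial cells, which carry smooth muscle proteins, and are not known for sarcomeres of their own.

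Among the members, Acta1 encodes the actin of adult skeletal muscle and Actc1 the actin of heart and of developing skeletal muscle. Their promoters are shown because the results on the thin filament turn on this pair, and because both hold a CArG box, the element bound by serum response factor. The sequences are the 250 bases before each gene's start in RefSeq's GRCm38.p6, minus strand, 5′ to 3′, at chr8:123894776-123895025 for Acta1 and chr2:114052876-114053125 for Actc1, with the CArG box in capitals.
Acta1: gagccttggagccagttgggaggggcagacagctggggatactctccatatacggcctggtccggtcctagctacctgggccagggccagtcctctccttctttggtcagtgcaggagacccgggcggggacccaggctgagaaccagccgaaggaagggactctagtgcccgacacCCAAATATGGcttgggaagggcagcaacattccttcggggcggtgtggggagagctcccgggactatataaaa
Actc1: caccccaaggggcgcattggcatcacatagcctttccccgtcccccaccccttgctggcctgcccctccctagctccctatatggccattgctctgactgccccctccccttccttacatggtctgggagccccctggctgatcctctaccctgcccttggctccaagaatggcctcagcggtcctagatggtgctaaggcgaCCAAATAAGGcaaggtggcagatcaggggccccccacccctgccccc
The box lay at -73 to -64 from the start of Acta1 and at -47 to -38 from that of Actc1. Of the 7 members with a promoter in the table, 2 held a CArG box on either strand, and 1.47% of all 32851 promoters in the table held one. An E-box (CANNTG), the letters bound by myogenic regulators of the MyoD family, stood in 6 of the 7 members and in 66.2% of all promoters. A MEF2 site stood in 1 of the 7, Ttn, and in 2.92% of all promoters, and TATAAA stood in 1 of the 7, Acta1, and in 12.4% of all. The motif searches covered both strands of the 250 bases, and a match describes the letters only.

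The libraries held 13152194 and 15339757 counts for the submandibular gland, 15972076 to 28856127 for the adult parotid and 12844534 and 14421876 for the P18 parotid. Levels below are CPM, counts scaled to library size and composition, unless TPM is named, the only scale here that is per transcript length. A pair of libraries stood apart. Adult parotid replicate 1 had 272 CPM of Xist, the RNA of the inactive X chromosome, and no count of the Y-linked Ddx3y, while the other 6 libraries had 65.8 to 130 CPM of Ddx3y. P18 parotid replicate 2 had the lowest summed level of 7 acinar genes, at 19654 CPM, and the highest summed level of 8 adipocyte genes, at 10107 CPM. The gland labels were checked against secretory genes. Smgc, a secretory gene of the young submandibular gland, reached 176587 and 218753 CPM in the submandibular pair and stood at 3.95 and 5.51 CPM in the P18 parotid pair. Amy1, salivary amylase, had 2.84 and 23.6 CPM in the submandibular libraries, 143166 to 165400 CPM in the adult parotid and 3512 and 1981 CPM in the P18 parotid.

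All 10 sarcomere genes fell in the P18 submandibular gland against the P18 parotid, with log2 differences of -5.79 for Des and lower for the others. Over all genes tested, 24.4% were called in this comparison, 14.2% lower and 10.2% higher. The libraries of the submandibular gland all lay below those of the P18 parotid for 10 of 10 members, which was so for 33.2% of all genes. The members' median log2 difference was -6.92, also with Actc1 at its bound, and that of all genes was -0.07. In bulk RNA, fewer cells of a type and less RNA per cell cannot be told apart. Between the adult and the P18 parotid, which differ in age, only Ttn passed the test, 24.6-fold lower in the adult, against a background of 25.9% of all genes called, 15.1% lower and 10.7% higher. These are edgeR quasi-likelihood tests with Benjamini-Hochberg adjustment over all genes tested, and the comparisons share the P18 parotid libraries. Without both libraries that stood apart, which left the P18 parotid without replicates, 10 of 10 members stayed lower in the submandibular gland. In the age comparison of that setting, 2 of 10 members were lower in the adult parotid. Tnni2 and Tnnc2 were higher there, by 2.17 and 2.53 on the log2 scale, where the median of all genes was 0.06.

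**Figure D1:**
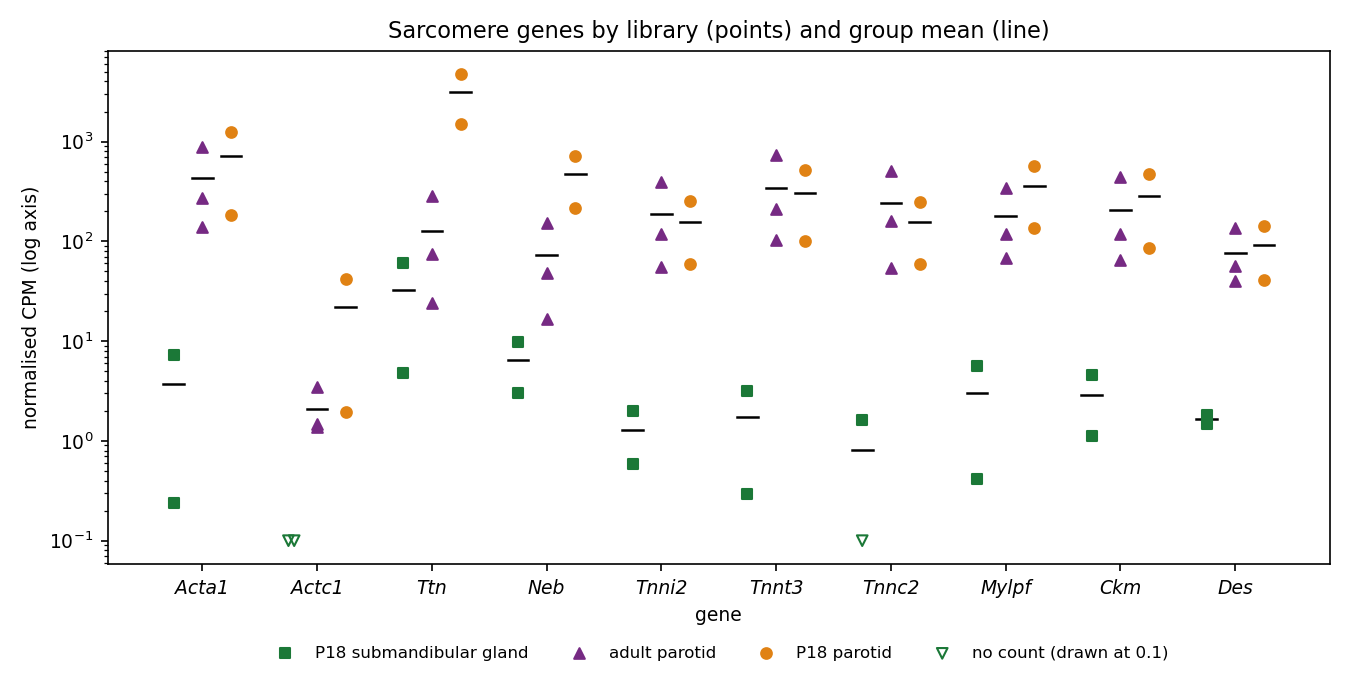
Normalised CPM of the 10 genes on a log axis, with 1 point per library and a line at the group mean, for P18 submandibular gland, adult parotid and P18 parotid. The submandibular points lie below all P18 parotid points in every gene, and Actc1 had no count in either submandibular library.

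The thin filament is built on actin. Acta1, the skeletal muscle actin, had 0.24 and 7.25 CPM in the P18 submandibular libraries, 138, 274 and 872 CPM in the adult parotid libraries, and 186 and 1259 CPM in the P18 parotid libraries. The 2 submandibular libraries were low, while the ranges of adult and P18 parotid overlapped. Acta1 fell by 7.62 ± 1.79 (SE) on the log2 scale in the submandibular gland against the P18 parotid (adjusted p = 0.0230). Its difference between adult and P18 parotid was -0.75 ± 1.19 (adjusted p = 0.659), with a 95% interval of -3.54 to 2.03.

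Actc1, the cardiac and developmental actin, had no count in either submandibular library, 1.37, 1.46 and 3.48 CPM in the adult parotid libraries and 1.95 and 41.9 CPM in the P18 parotid libraries. One P18 parotid library, replicate 2, held nearly all of the P18 counts, 935 against 43 in replicate 1. With a group at 0 taken as 3 counts over the group, Actc1 was at least 225-fold lower in the submandibular gland than in the P18 parotid (adjusted p = 0.0241). The same bound was 19.9-fold without P18 parotid replicate 2, 427-fold without P18 parotid replicate 1, and 100.4-fold and 124-fold without submandibular replicates 1 and 2. The adult parotid did not pass the test against the P18 parotid, with a difference of -3.34 ± 1.11 (adjusted p = 0.0702). Because the actins are nearly identical in sequence, reads can be shared among them, and how shared reads were counted is not given in the sources used here.

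The share of Actc1 in the summed TPM of both actins describes how far the developmental isoform contributed. It was 1.11%, 0.599% and 0.448% in the adult parotid libraries and 1.18% and 3.63% in the P18 parotid libraries. Every adult library was below both P18 libraries, with means of 0.718% ± 0.345 (SD, n = 3) in the adult and 2.40% ± 1.73 (SD, n = 2) at P18. A two-sided exact permutation test gave p = 0.2, the smallest that this test as run could give over its 10 assignments of 3 against 2 libraries. In the submandibular libraries the share was 0 of 4 and 0 of 99 actin counts, which allows up to 75.0% and 3.03%, so at this depth the first says nothing of the isoform. These limits cover counting error only.

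Titin and nebulin are the giant proteins of the filament lattice. Ttn, the elastic filament that spans from the Z-disc to the M-line, had 4.79 and 60.9 CPM in the P18 submandibular libraries, 23.99, 74.05 and 283 CPM in the adult parotid libraries, and 1512 and 4747 CPM in the P18 parotid libraries. The P18 parotid libraries were both above every other library, and submandibular replicate 2 lay inside the adult range. Ttn fell by 6.58 ± 1.68 in the submandibular gland (adjusted p = 0.0300) and by 4.62 ± 1.29 in the adult parotid (adjusted p = 0.0382), each against the P18 parotid. The 95% interval of the age difference was -7.65 to -1.59. The age call was lost without adult parotid replicate 1 (adjusted p = 0.0818), adult parotid replicate 2 (adjusted p = 0.124) or P18 parotid replicate 2 (adjusted p = 0.0980).

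Neb, the ruler of the thin filament in skeletal muscle, had 3.02 and 9.89 CPM in the P18 submandibular libraries, 16.7, 47.9 and 152 CPM in the adult parotid libraries, and 217 and 724 CPM in the P18 parotid libraries. The groups did not overlap, with the P18 parotid highest. In the submandibular gland Neb fell by 6.20 ± 1.27 against the P18 parotid (adjusted p = 0.0156). In the adult parotid it was -2.70 ± 0.92 from the P18 parotid on the log2 scale, which did not pass the test (adjusted p = 0.0678). Ttn and Neb were the 2 members whose adult libraries all lay below both P18 libraries, which was so for 27.4% of all genes.

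The age difference of all genes moved with gene length. Relative to the median tested gene, the length implied by counts and TPM was 36.8 for Ttn, 7.94 for Neb and 0.235 to 0.759 for the other members. The median log2 difference between adult and P18 parotid was 0.36 in the 1897 genes of relative length 0.25 to 0.5, -0.62 in the 1795 genes of 2 to 4, and -1.36 in the 165 genes above 4. The same medians between submandibular gland and P18 parotid were -0.03, -0.10 and -0.36. Removing this trend from each library, a setting chosen after seeing the data, gave Ttn a difference of -3.56 ± 1.27 (adjusted p = 0.0835) and Neb one of -1.63 ± 0.92 (adjusted p = 0.227) between adult and P18 parotid, so that no member passed the test. At an unadjusted p under 0.05, edgeR then had 2 members. The submandibular comparison kept 10 of 10 members called under the same setting.

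**Figure D2:**
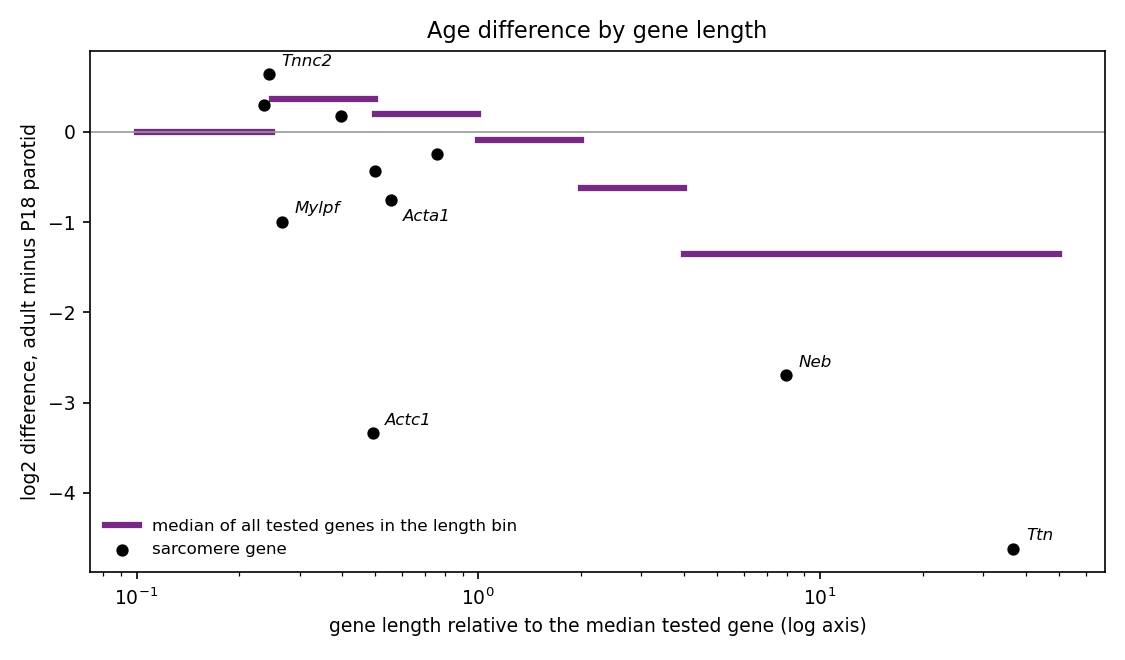
Log2 difference of adult minus P18 parotid for each sarcomere gene (points) and the median of all tested genes in 6 bins of gene length (bars), against length relative to the median tested gene on a log axis. The bars fall to -1.36 among the longest genes, and Neb and Ttn lie below them at -2.70 and -4.62.

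The fast skeletal troponins form the calcium switch of the thin filament, with an inhibitory, a tropomyosin-binding and a calcium-binding subunit. Tnni2, the inhibitory subunit, had 0.59 and 1.98 CPM in the P18 submandibular libraries, 54.7, 119 and 397 CPM in the adult parotid libraries, and 58.7 and 251 CPM in the P18 parotid libraries. Tnnt3, the tropomyosin-binding subunit, had 0.30 and 3.15 CPM in the submandibular libraries, 103, 209 and 727 CPM in the adult parotid and 100.3 and 514 CPM in the P18 parotid. Tnnc2, the calcium-binding subunit, had 0 and 1.61 CPM in the submandibular libraries, 54.5, 160 and 507 CPM in the adult parotid and 59.0 and 250.5 CPM in the P18 parotid. For each subunit the submandibular libraries were far below the rest and the ranges of the parotid ages overlapped.

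Against the P18 parotid, Tnni2 fell by 6.94 ± 1.33 (adjusted p = 0.0128), Tnnt3 fell by 7.52 ± 1.56 (adjusted p = 0.0159) and Tnnc2 fell by 7.66 ± 1.68 (adjusted p = 0.0190) in the submandibular gland. Between adult and P18 parotid the differences were 0.30 ± 0.90 for Tnni2 (adjusted p = 0.823), 0.17 ± 1.04 for Tnnt3 (adjusted p = 0.913) and 0.64 ± 1.10 for Tnnc2 (adjusted p = 0.686), none past the test. Their signs turned negative under plain library sizes, where the median difference of all genes was -1.24, and their 95% intervals reached from -2.26 to 3.20. Tnni2 and Tnnt3 are near neighbours on chromosome 7 in RefSeq's GRCm38.p6, with 2 genes, Lsp1 and Prr33, between them.

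The subunits stood close to 1:1:1 per transcript length. In TPM, the highest of the 3 was 1.16 to 1.29 times the lowest in the adult parotid libraries, and 1.05 and 1.27 times in the P18 parotid libraries. In submandibular replicate 2 it was 1.27 times, with 3.70 to 4.71 TPM, while in replicate 1 Tnnc2 had no count. The slow isoforms Tnni1, Tnnt1 and Tnnc1, which replace the fast ones in slow fibres, made up 0.297%, 0.207% and 0.0797% of troponin TPM in the adult parotid libraries, against 0.5002% and 0.837% in the P18 parotid libraries. Every adult library was below both P18 libraries. The means were 0.195% ± 0.109 in the adult (SD, n = 3) and 0.669% ± 0.238 at P18 (SD, n = 2). In counts, the exact 95% intervals of adult replicate 1, 0.130% to 0.664%, and of P18 replicate 1, 0.369% to 0.812%, overlapped. The two-sided exact permutation test gave p = 0.2, the smallest that this test as run could give with these libraries. In the submandibular libraries the slow share was 33.5% and 4.62% of TPM, from 9 of 24 and 5 of 97 troponin counts. The exact 95% intervals of these count shares ran from 18.8% to 59.4% and from 1.69% to 11.6%, and the difference to the P18 parotid had p = 0.333, the smallest that an exact permutation test of 2 against 2 allows.

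Mylpf, the fast skeletal regulatory light chain that sits on the neck of the myosin head, had 0.41 and 5.64 CPM in the P18 submandibular libraries, 68.4, 119.5 and 345 CPM in the adult parotid libraries, and 137 and 572 CPM in the P18 parotid libraries. Submandibular levels were lowest and parotid ages overlapped. Mylpf fell by 6.90 ± 1.44 in the submandibular gland (adjusted p = 0.0161), and differed by -0.996 ± 0.979 between adult and P18 parotid (adjusted p = 0.469).

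Ckm, the muscle creatine kinase that regenerates ATP beside the myofibril, had 1.12 and 4.61 CPM in the P18 submandibular libraries, 65.0, 119 and 441 CPM in the adult parotid libraries, and 85.7 and 478 CPM in the P18 parotid libraries. Its pattern was that of Mylpf, low in the submandibular gland and overlapping between parotid ages. It fell by 6.64 ± 1.40 in the submandibular gland (adjusted p = 0.0167), and differed by -0.44 ± 0.97 between adult and P18 parotid (adjusted p = 0.756).

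Des, the intermediate filament of all muscle types, smooth muscle included, had 1.48 and 1.83 CPM in the P18 submandibular libraries, 39.7, 56.6 and 135 CPM in the adult parotid libraries, and 40.8 and 142 CPM in the P18 parotid libraries. The submandibular pair lay closer together than in the other members with a ratio. Des fell by 5.79 ± 0.88 in the submandibular gland (adjusted p = 0.00683), the smallest p among the members, and differed by -0.25 ± 0.62 between adult and P18 parotid (adjusted p = 0.785).

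**Figure D3:**
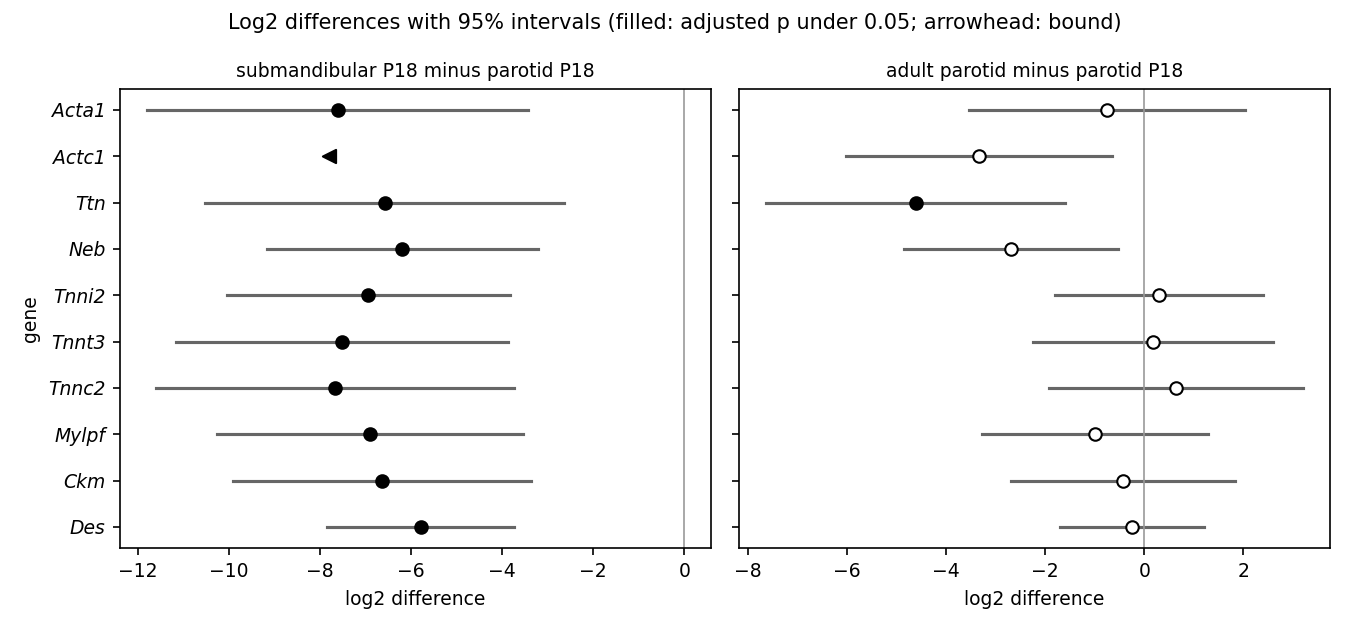
Log2 differences of the 10 genes with 95% intervals from the edgeR fit, for submandibular P18 minus parotid P18 (left) and adult parotid minus parotid P18 (right), with filled points where the adjusted p was under 0.05 and an arrowhead for the bound of Actc1. All 10 points on the left are filled and below -5, while Ttn alone is filled on the right.

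The call of the submandibular comparison rested on both submandibular libraries. Without submandibular replicate 1, and likewise without replicate 2, 10 of 10 members stayed lower but none passed the test. With 1 library left in that group, its spread was taken from the other groups, and most calls over all genes were lost as well. The loss was thus not particular to the members. With the 2 groups alone in the fit, 6 of 10 members were called, beside 1349 of all 14634 genes tested.

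Replicates of a group differed in the members together. P18 parotid replicate 2 was above replicate 1 in 10 of 10 members, by 3.14-fold for Ttn to 21.5-fold for Actc1, with a median of 4.26-fold. Adult parotid replicate 3 was 2.53-fold to 11.8-fold above replicate 1, with a median of 6.94-fold. In the 8 members with counts in both submandibular libraries, replicate 2 was above replicate 1, by 1.24-fold for Des to 30.6-fold for Acta1. As a share of all counts, the members took 0.00132% and 0.0101% in the submandibular libraries, 0.0361%, 0.0844% and 0.277% in the adult parotid, and 0.411% and 1.39% in the P18 parotid.

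The proportions of the members within a library also differed between groups. Per 100 TPM of Mylpf, Ttn had 8.37 and 7.81 TPM in the submandibular libraries, 0.254, 0.448 and 0.594 TPM in the adult parotid libraries, and 7.98 and 6.004 TPM in the P18 parotid libraries. The adult libraries were thus the ones low in Ttn for their Mylpf. Submandibular replicate 1 held only 7 counts of Mylpf, which limits its ratios. Neb gave 24.5 and 5.89 TPM per 100 TPM of Mylpf in the submandibular libraries, 0.822, 1.35 and 1.48 TPM in the adult parotid, and 5.31 and 4.25 TPM in the P18 parotid, again lowest in the adult. The troponins, Ckm and Des ran the other way, each higher for its Mylpf in every adult library than in both P18 parotid libraries. Tnnc2 had 87.1, 146 and 160 TPM in the adult parotid against 46.9 and 47.8 TPM in the P18 parotid, Tnni2 90.7 to 130 against 48.5 and 49.7 TPM, and Tnnt3 101 to 142 against 49.3 and 60.5 TPM. Ckm had 50.8 to 68.2 TPM in the adult parotid against 33.3 and 44.6 TPM in the P18 parotid, and Des 13.7 to 20.4 against 8.73 and 10.4 TPM, so these ratios move with the level of Mylpf itself. Acta1 gave 97.3 to 122 TPM in the adult parotid against 65.0 and 106 TPM in the P18 parotid, which overlapped. Per 100 TPM of Acta1, the troponins stayed higher in every adult library, while Ckm and Des overlapped. Ckm then had 48.0 to 56.1 TPM in the adult parotid against 51.3 and 42.2 TPM in the P18 parotid. Des had 11.3 to 21.0 TPM against 16.1 and 8.26 TPM. Ttn took 40.1% and 62.9% of the members' counts in the submandibular libraries, 4.24%, 6.27% and 7.33% in the adult parotid, and 63.1% and 52.9% in the P18 parotid. The trend of the age difference with gene length moves with these ratios, and its part in them was not tested.

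**Figure D4:**
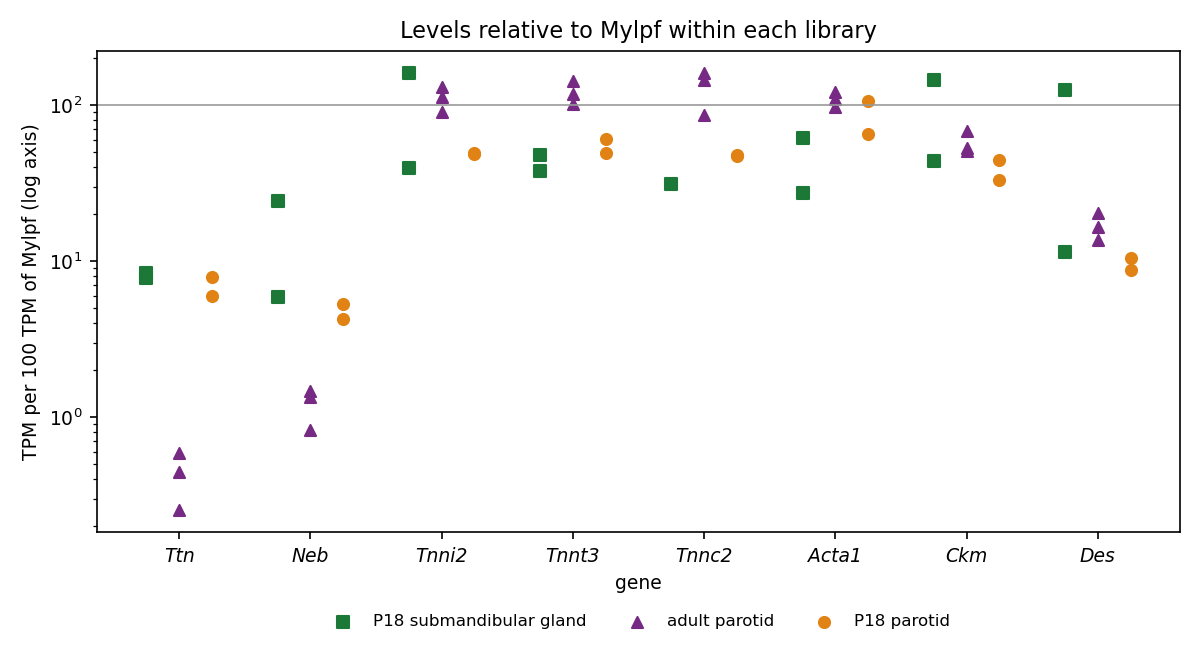
TPM of 8 sarcomere genes per 100 TPM of Mylpf in the same library, on a log axis, with 1 point per library of P18 submandibular gland, adult parotid and P18 parotid. Ttn lies at 0.254 to 0.594 in the adult libraries and at 6.004 and 7.98 in the P18 parotid libraries, and the library without a Tnnc2 count is not drawn.

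The order of levels within a library was read in TPM. In P18 parotid replicate 1, Mylpf led with 585 TPM, ahead of Acta1 with 381 TPM, and the fast troponins followed with 275 to 288 TPM. Ckm with 195 TPM, Des with 61.1 TPM, Ttn with 46.7 TPM, Neb with 31.1 TPM and Actc1 with 4.53 TPM came after them. In replicate 2 Acta1 led with 2399 TPM, just ahead of Mylpf with 2269 TPM, so the order of these neighbours did not hold across the replicates. In the adult libraries Ttn had 0.168, 0.628 and 2.38 TPM, Neb 0.544, 1.88 and 5.94 TPM and Actc1 0.720, 0.931 and 2.19 TPM. These were the lowest 3 members in each adult library, below Des with 13.5 to 55.0 TPM, and their order among themselves changed with the library.

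Over the 7 libraries, the log2 CPM of the members correlated with a median of 0.92 over the 45 pairs, from 0.69 for Ttn and Tnni2 to 1.00 for Tnnt3 and Tnnc2. This is a description over libraries that share their gland and age. Ckm was closest to the members' median profile, with a root mean square difference of 0.162 on the log2 scale, and Ttn was farthest, with 2.16. Among genes that are not members, Myom2, an M-line protein, had the profile nearest to the median at 0.179. Trdn, Cacna1s, Myoz1, Mybpc2, Atp2a1, Actn3, Mybpc1, Casq1 and Cox6a2 came next, at 0.373 to 0.548. The nearest such gene was Myl1 for Acta1 (0.230), Trdn for Mylpf (0.178), Atp2a1 for Tnni2 (0.244) and Dhrs7c for Des (0.170), while for Ttn it was Ppp1r3a at a distance of 1.39.

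Between the submandibular gland and the adult parotid, 8 of 10 members fell, where 39.2% of all genes were called, 19.8% lower and 19.4% higher, and 9 of 10 did not overlap, against 35.9% of all genes. The exceptions to the test were Ttn, at -1.96 ± 1.30 (adjusted p = 0.269), and Actc1, at least 23.8-fold lower (adjusted p = 0.0696), a bound that was 10.6-fold and 13.2-fold without submandibular replicates 1 and 2 and 14.5-fold without adult replicate 3. Tnnc2 fell by 8.30 ± 1.69 (adjusted p = 0.00871) and Neb fell by 3.50 ± 1.09 (adjusted p = 0.0392), the largest and the smallest of the called differences. The glands here differ in age as well as in kind. Without both libraries that stood apart, and without submandibular replicate 1, 10 of 10 members stayed lower in the submandibular gland. The latter setting left 1 submandibular library, and fewer members and fewer of all genes were called. The members' median log2 difference was -6.53, and -6.05 with Actc1 at its bound.

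The other genes of striated muscle gave the following counts. Of 20 further sarcomere genes, 15 fell in the submandibular gland against the P18 parotid, with a median log2 difference of -4.92, among them Actn2 and Mybpc1. Actn2, the Z-disc actinin, fell by 4.39 ± 0.65 (adjusted p = 0.00652) and Mybpc1, a myosin-binding protein, fell by 6.68 ± 1.25 (adjusted p = 0.0121). Between adult and P18 parotid edgeR called 0 of the 20, with 0 at an unadjusted p under 0.05 and 0 by DESeq2. Limma on log2(TPM + 1), where the median of all genes was -1.54, called 12595 of all 14358 genes, 99.3% of them lower. Of the 20, limma called 14 lower. The most abundant by mean TPM over the parotid libraries, Myl1, an essential myosin light chain, averaged 217 ± 203 CPM in the adult (SD, n = 3) and 358 ± 337 CPM at P18 (SD, n = 2). Of 11 genes of excitation-contraction coupling, which release calcium onto troponin, 10 fell in the submandibular gland, among them Trdn, triadin, which fell by 7.07 ± 1.43 (adjusted p = 0.0149). Between adult and P18 parotid 0 of these 11 passed edgeR's test, with 0 at an unadjusted p under 0.05 and 0 by DESeq2, while limma called 6 lower of the 12 genes it tested. The most abundant by the same measure, Pvalb, the calcium buffer parvalbumin, averaged 203 ± 218 CPM in the adult (SD, n = 3) and 242 ± 250.3 CPM at P18 (SD, n = 2). Of 10 genes of muscle energy supply, 6 fell in the submandibular gland, among them Eno3, muscle enolase, which fell by 5.46 ± 1.01 (adjusted p = 0.0114), and 1, Fbp2, was higher in the adult than in the P18 parotid, by 0.66 ± 0.19 (adjusted p = 0.0439). Without both libraries that stood apart, 1 P18 parotid library was left. The median log2 differences of these lists were then -3.86, -4.88 and -3.21 in the submandibular gland against the P18 parotid. Between adult and P18 parotid they were 1.11, 1.66 and 1.73, where the median of all genes was 0.06.

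Genes of other muscle classes did not share one pattern. Of 8 slow fibre genes 4 passed the filter, and 3 fell in the submandibular gland, while in the adult parotid 1, Myoz2, fell by 3.50 ± 0.95 (adjusted p = 0.0341), each against the P18 parotid. Without both libraries that stood apart Myoz2 was at -1.52 in the adult parotid (adjusted p = 0.149), and 1 slow fibre gene was higher and 0 lower there. Of 8 cardiac genes 4 passed the filter. In the submandibular gland edgeR called 0 of these against the P18 parotid, with 1 at an unadjusted p under 0.05 and 0 by DESeq2. Limma on log2(TPM + 1), which called 9291 of all 14358 genes, called 1 of 3 cardiac genes lower. In the adult parotid 1, Ryr2, the cardiac calcium release channel, fell by 2.24 ± 0.54 (adjusted p = 0.0241). The cardiac genes summed to 4.8 and 5.1 CPM in submandibular libraries, 4.0 to 7.2 CPM in adult parotid and 4.2 and 6.9 CPM in P18 parotid, and Nppb had no count in any library. Of 12 muscle precursor and regulator genes 6 passed the filter, and Mef2c, a MEF2 factor, fell by 1.45 ± 0.19 in the submandibular gland (adjusted p = 0.00488), 1 of 2 that fell there.

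Smooth muscle and myoepithelial genes did not fall with the sarcomere genes. Of 10 such genes 5 were higher and 0 lower in the submandibular gland than in the P18 parotid by edgeR, among them Cnn1, calponin, by 1.49 ± 0.19 (adjusted p = 0.00452) and Acta2, smooth muscle actin, by 0.95 ± 0.20 (adjusted p = 0.0160). This depended on the scaling, since 1 was called higher with plain library sizes. With limma on log2(TPM + 1), 1 was called higher and 1 lower, and Myh11 was at -0.12. Over all genes, these settings called 5967 of 15129 and 9291 of 14358, with 91.3% and 95.03% of the calls lower. The smooth muscle and myoepithelial genes summed to 612 and 645 CPM in the submandibular libraries, 295 to 336 CPM in the adult parotid and 360.3 and 386 CPM in the P18 parotid. In the adult against the P18 parotid, 1 of the 10 was higher, Krt14, and 3 were lower, among them Myh11, smooth muscle myosin, which fell by 0.93 ± 0.18 (adjusted p = 0.0120). Krt14, a keratin of basal and myoepithelial cells, and Fbp2 turned to -0.13 and -0.58 in this comparison with plain library sizes. Limma on log2(TPM + 1) called 8 of the 9 smooth muscle genes it tested lower and 0 higher there. Over all genes it called 12595 of 14358 there, 99.3% of them lower.

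Markers of other tissues also differed between the groups. Of 8 brown and white adipocyte genes, 8 fell in the submandibular gland and 3 in the adult parotid, each against the P18 parotid. They summed to 25.9 and 29.5 CPM in the submandibular libraries, with 1 of the 8 at 0 in each, 2983, 2758 and 2361 CPM in adult parotid replicates 1, 2 and 3, and 2830 and 10107 CPM in the P18 parotid, with none at 0 in the parotid. Cidec was the one at 0 in submandibular replicate 1, and Plin1 in replicate 2, both genes of the fat droplet's coat. Of 6 endothelial genes, 6 fell in the submandibular gland and 3 in the adult parotid, each against the P18 parotid, with sums of 92.1 and 100.6 CPM in the submandibular libraries, 254, 198 and 198 CPM in adult parotid replicates 1, 2 and 3, and 325 and 698 CPM in the P18 parotid. The sarcomere members without Ttn summed to 7.16 and 35.96 CPM in the submandibular libraries, 541, 1106 and 3579 CPM in adult parotid replicates 1, 2 and 3, and 886 and 4233 CPM in the P18 parotid. Adipocyte, endothelial and sarcomere sums were thus all higher in P18 parotid replicate 2 than in replicate 1, while among the adult libraries the one highest in sarcomere genes was lowest in adipocyte genes. With plain library sizes, where the median difference of all genes between adult and P18 parotid was -1.24, the adult parotid had 8 of 8 adipocyte, 6 of 6 endothelial, 8 of 10 smooth muscle, 7 of 20 further sarcomere, 1 of 11 coupling, 3 of 10 energy supply, 3 of 4 slow fibre, 2 of 4 cardiac and 2 of 6 regulator genes called lower and 0 higher. Over all genes, 10957 of the 15129 tested were called in that setting, 98.5% of them lower. The part of these markers in the result was not tested.

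**Figure D5:**
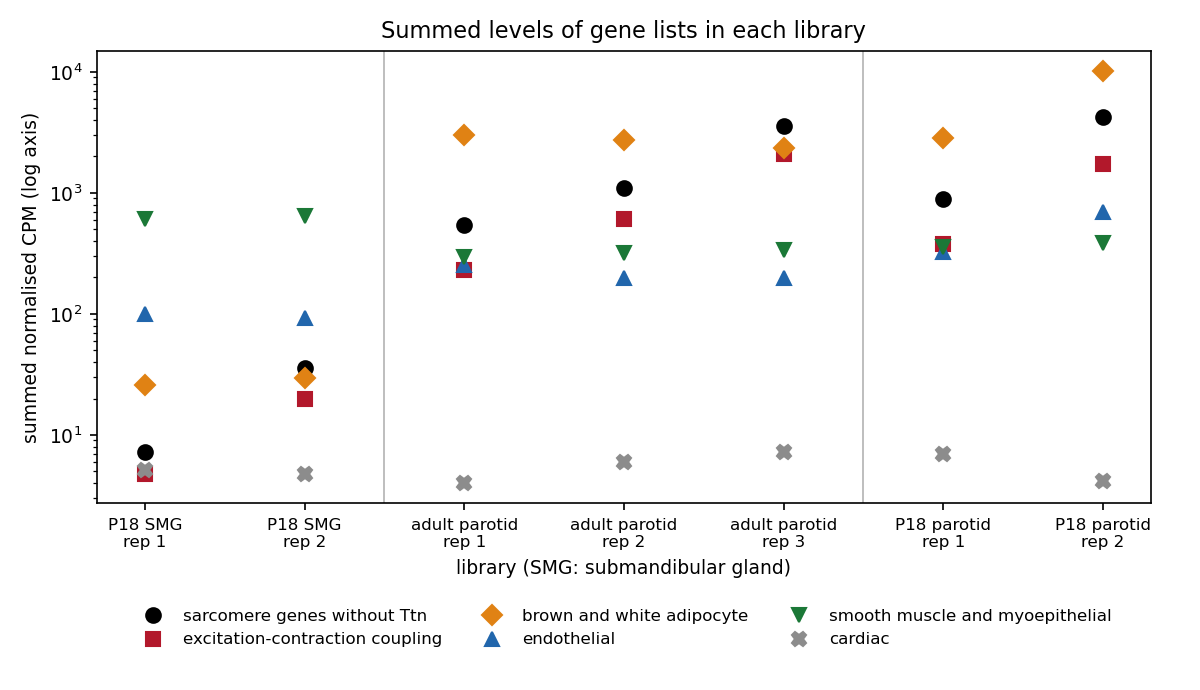
Summed normalised CPM of the sarcomere genes without Ttn and of 5 other gene lists in each of the 7 libraries, on a log axis, with lines between the groups. The sarcomere sum is 7.16 and 35.96 CPM in the submandibular libraries and 886 and 4233 CPM in the P18 parotid libraries, while the cardiac sum stays between 4.0 and 7.2 CPM.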

How the data were processed

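Bulk RNA-seq was analysed from 7 libraries. The authors deposited raw counts per gene and TPM per gene in tables of the whole series. The submitters' processing notes name the mouse build mm9 and, without their roles, the tools featureCounts (1.5.1), TopHat2 (2.1.1), DESeq2 (1.20.0) and Bowtie2 (2.2.6). How strand and multi-mapping reads were treated is not stated there. In the count table, 2 columns matched no sample and were not used.

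Counts were tested with edgeR 4.0.16 (R 4.3.3, quasi-likelihood, TMM scaling, 4 residual degrees of freedom, all 3 groups in 1 fit), after edgeR's filter on low counts (minimum 10, total 15), with Benjamini-Hochberg adjustment over 15129 genes and a threshold of 0.05. Shares were compared by exact permutation tests. DESeq2 1.42.0, limma 3.58.1 on log2(TPM + 1) and log2(TPM + 0.1), other scalings, filters and omitted libraries were alternatives, and the fits were tested on simulated data. TPM served for comparing levels between genes.

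The members and the 12 gene lists were chosen with earlier results of these data known. Named genes are all members and, from the muscle lists, some of those with the smallest adjusted p. These had more than 3 counts in each group compared. Where no gene of a list passed, the most abundant was named. The genes most like the members are the 10 non-members nearest to their median profile, leaving out myosin heavy chains. Counting intervals cover counting error only, and depth limits the submandibular values most.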

Additional observations from a re-analysis of the deposited data

How the results depend on the processing

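All 10 members were lower in the submandibular gland than in the P18 parotid under all 18 alternatives run. Of 10 called, 6 were with only the 2 groups in the fit, and leaving out 1 library gave 0 to 10 with medians of -9.53 to -5.54. In the age comparison 3 members were called with plain library sizes, 5 with limma on log2(TPM + 1) or log2(TPM + 0.1), 4 without the TPM filter, 2 without both libraries that stood apart, 0 with length-trend offsets (both chosen after seeing the data) and 0 to 3 with 1 library left out. Over all genes, plain library sizes called 10957 of 15129 between adult and P18 parotid, 98.5% of them lower. Log2(TPM + 1) called 12595 and log2(TPM + 0.1) called 12546 of 14358 genes, and 14170 of 19669 were called without the TPM filter. The members' median log2 difference with age was -2.40 with log2(TPM + 1), filtered or not, and -2.42 with log2(TPM + 0.1). It was 1.47 without both libraries and -1.71 to 1.10 with 1 left out. For submandibular gland against adult parotid, 1 to 9 members were called with 1 left out, with medians of -8.30 to -5.42, and -4.77 with log2(TPM + 1), filtered or not.

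Age differences that changed sign were those of Tnni2, Tnnt3 and Tnnc2 with plain library sizes (-0.86, -0.98 and -0.52), with log2(TPM + 1), filtered or not (-1.72, -1.76 and -1.47), and with log2(TPM + 0.1) (-1.73, -1.77 and -1.48). Tnnt3 was -0.062 with length-trend offsets. Acta1, Actc1, Mylpf, Ckm and Des turned positive without both libraries (1.66, 0.40, 0.80, 1.74 and 1.27). With 1 library left out, the age difference ran from -1.80 to 1.24 for Acta1, -4.20 to 0.17 for Actc1, -0.83 to 1.73 for Tnni2, -0.97 to 1.82 for Tnnt3, -0.53 to 2.06 for Tnnc2, -1.91 to 0.41 for Mylpf, -1.62 to 1.32 for Ckm and -0.92 to 0.95 for Des, with each highest value without P18 parotid replicate 2. The cause was not tested.

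Same-numbered submandibular and P18 parotid libraries deviated together with a correlation of 0.239, and adult and P18 parotid ones with 0.084 and 0.010, and the labels do not tie the numbers. With the replicate number as a block, 10 members were called in the submandibular comparison and 2 in the age comparison, where Tnni2, Tnnt3 and Tnnc2 were -0.59, -0.56 and -0.35, and 1496 genes in all.

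Over all genes, 3686 were called in the submandibular comparison, 5967 with plain library sizes, 1349 with only the 2 groups, 9291, 8689 and 9941 with log2(TPM + 1), log2(TPM + 0.1) and no TPM filter, 6245 without both libraries and 148 to 5397 with 1 left out. In the age comparison 3915 were called, and 10957, 2183, 12595, 12546, 14170, 6518 and 1306 to 6073 under the same settings. For submandibular gland against adult parotid 5927 were called, 9022, 9593 and 8977 with the TPM settings, 9345 without both libraries and 2016 to 7824 with 1 left out. Plain library sizes moved the median of all genes to -0.67 in the submandibular comparison, -1.24 in the age comparison and 0.61 between submandibular gland and adult parotid. The share of calls that were lower became 91.3%, 98.5% and 20.2%, against 58.3%, 58.5% and 50.6% with TMM scaling. On log2(TPM + 1) these medians were -0.83, -1.54 and 0.75, with 95.03%, 99.3% and 11.1% of calls lower.

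With 1 library left out, the Actc1 share differed by -2.91 to -0.457 percentage points between adult and P18 parotid and by -3.63 to -1.18 between submandibular gland and P18 parotid. The slow troponin share differed by -0.642 to -0.305 and by 3.95 to 32.9. As a log2 ratio with 0.5 TPM added, the submandibular difference of Actc1 reversed to 3.21, a setting in which the added TPM exceeds the Actc1 level of 0. The submandibular libraries held 4 and 99 actin counts, which limits what they show of isoforms.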

Other observations

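Among the lists outside muscle, 8 of 8 B and T cell genes fell in the submandibular gland against the P18 parotid, and 1 was higher in the adult than in the P18 parotid. They summed to 1.6 and 1.4 CPM in the submandibular libraries, 220 to 523 CPM in the adult parotid and 161 and 25.3 CPM in the P18 parotid. Of 6 Schwann cell genes, 4 fell in the submandibular gland, while in the adult parotid 1 was higher and 3 were lower, each against the P18 parotid. Of 7 acinar genes, 4 were higher and 1 lower in the submandibular gland and 4 were higher in the adult parotid. Plain library sizes called 10957 of all 15129 genes between adult and P18 parotid, 98.5% of them lower. With plain library sizes the adult counts were 0 of 8 B and T cell genes, 5 Schwann cell genes lower and 0 higher, and 3 acinar genes higher. All are edgeR quasi-likelihood calls with Benjamini-Hochberg adjustment.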
